A study of Mus musculus with 24 samples.

Results

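The genes examined here encode the plasma proteins of blood clotting and of complement, which are made largely by hepatocytes. They were 36 genes in 3 roles: 13 clotting genes, 8 genes that control clotting or clot dissolution, and 15 complement genes. The 8 are called anticlotting below, although the products of Serpinf2 and Cpb2 among them slow clot dissolution. They were taken by symbol from a table of 54532 genes, with the condition of a mean of at least 1 CPM (the count scaled to library size) over 24 libraries, which all 36 met. All 36 also passed the filter on low counts. Livers came from mice aged 12 to 16 weeks with free access to food, and mRNA was sequenced at 6 zeitgeber times (ZT, hours after lights on), from ZT04 to ZT24 in steps of 4 h. The knockout mice were Hlf-/-/Dbp-/-/Tef-/-, and so lacked all 3 PAR bZip transcription factors. The control mice were Hlf+/+/Dbp+/+/Tef+/+ and are called wild type below. Each of the 12 groups of genotype and time held 2 libraries, 1 with the letter I and 1 with the letter P in its label, giving 12 libraries per genotype and 6 per genotype and letter. The labels do not say what the letters stand for, so the libraries are called set I and set P. Whether both libraries of a group stem from separate animals is not stated either, and the p-values reflect the spread among libraries, which may be technical.

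In the clotting cascade, serine proteases made as inactive precursors activate one another until thrombin, from F2, cuts fibrinogen into fibrin. Antithrombin, protein C and protein S brake the cascade, and plasmin, from Plg, dissolves the clot. Complement is a related chain of proteases and binding proteins, started by antibodies, by mannose-binding lectins or by spontaneous activation of C3, that marks microbes and ends in a pore built from C5b, C6, C7, C8 and C9. Dbp, Tef and Hlf are clock-driven activators that bind D-box elements in genes of liver metabolism.

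The sequences just upstream of 5 genes are shown because the results turn on them: the fibrinogen chain genes Fga, Fgb and Fgg for their change over the day, and F10 and F11 as examples of clotting genes with a lower and a higher level in the knockout in both sets. They are RefSeq sequences of mouse build GRCm38.p6, written 5′ to 3′ in the direction of the gene and ending before the first annotated exon, at chr3:83025903-83026075 (Fga, plus strand), chr3:83049864-83050113 (Fgb, minus strand), chr3:83007474-83007723 (Fgg, plus strand), chr8:13037058-13037307 (F10, plus strand) and chr8:45262032-45262281 (F11, minus strand). Capitals mark matches to CTGGGAA, a core of IL-6 response elements, or to GTTAAT, a half-site of the hepatocyte factor HNF1, on either strand.
Fga: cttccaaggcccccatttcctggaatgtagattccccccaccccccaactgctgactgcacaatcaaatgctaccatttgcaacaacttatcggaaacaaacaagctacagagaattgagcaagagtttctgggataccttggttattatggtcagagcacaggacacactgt
Fgb: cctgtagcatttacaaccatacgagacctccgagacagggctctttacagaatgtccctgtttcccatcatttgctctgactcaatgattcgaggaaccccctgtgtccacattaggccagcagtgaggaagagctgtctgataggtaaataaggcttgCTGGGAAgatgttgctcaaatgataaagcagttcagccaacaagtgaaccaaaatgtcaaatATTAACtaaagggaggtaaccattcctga
Fgg: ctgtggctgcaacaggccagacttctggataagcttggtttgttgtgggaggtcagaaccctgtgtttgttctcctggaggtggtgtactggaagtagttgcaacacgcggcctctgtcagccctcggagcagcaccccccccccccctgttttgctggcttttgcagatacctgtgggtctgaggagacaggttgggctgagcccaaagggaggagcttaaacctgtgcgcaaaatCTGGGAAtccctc
F10: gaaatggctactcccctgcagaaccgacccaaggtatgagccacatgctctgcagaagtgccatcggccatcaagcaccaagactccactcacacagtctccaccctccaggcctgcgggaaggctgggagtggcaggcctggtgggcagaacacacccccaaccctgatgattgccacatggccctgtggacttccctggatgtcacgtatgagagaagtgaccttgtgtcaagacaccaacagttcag
F11: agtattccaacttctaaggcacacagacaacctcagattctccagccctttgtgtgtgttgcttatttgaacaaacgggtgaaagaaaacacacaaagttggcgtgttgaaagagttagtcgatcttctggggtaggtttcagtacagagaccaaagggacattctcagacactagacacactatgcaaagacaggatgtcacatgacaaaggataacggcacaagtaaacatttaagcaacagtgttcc

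In the 250 bases upstream of the RefSeq start, the D-box letters TTATGTAA or TTACGTAA, searched on both strands, were found in 0 of 29 promoters of 28 members and in 0.931% of all 32851 promoters. The E-box letters CACGTG were also in 0 of the 29, against 6.02% of all. CTGGGAA was in 4 of the 29 (F9, Fgb, Fgg and Masp2), which is 13.8%, against 9.1% of all. GTTAAT was in 7 (C4bp, C8a, C8b, F13b, Fga, Fgb and Hc), which is 24.1%, against 6.43% of all. The match of Fga lies nearer the RefSeq start than the stretch printed. TAGGTCA, the core of ROR and REV-ERB elements, was in C6 alone, which is 3.45%, against 2.23% of all. No matches overlapped in the members, and these letters describe only this window.

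The libraries held 14613001 to 19288322 counts, of which the members took 3.94% to 6.25%. The 3 deleted genes matched the labels: Dbp averaged 15.4 CPM in wild type and 0.0199 in knockout, Tef 185 and 14.7, and Hlf 72.7 and 1.55, with every knockout library below every wild-type library. The wild-type libraries of set I stood apart from the others. For each library, log2 levels relative to each gene's median over the 24 libraries were correlated, across genes, with transcript GC content. The correlation was 0.437 ± 0.195 (SD, n = 6) in wild-type set I and -0.0599 ± 0.1002 in wild-type set P. In knockout it was -0.0514 ± 0.0578 in set I and -0.228 ± 0.0795 in set P. Within wild-type set I it was highest at ZT20 (0.648), ZT16 (0.609) and ZT04 (0.581). Hepatocyte markers were abundant throughout, with summed levels of 72094 to 101091 CPM in wild type and 46694 to 72089 CPM in knockout, without overlap, and 5 of 8 tested were lower and 0 higher in knockout. In liver homogenate, fewer cells of a type and less RNA per cell cannot be told apart.

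This difference between sets reached the members. In wild type, 25 of 36 members differed between set I and set P by more than 0.25 on the log2 scale, averaged over 6 times, and in knockout 2 did. F9, which encodes clotting factor IX, read 59.7, 127, 162, 49.2, 25.1 and 182 CPM in wild-type set I from ZT04 to ZT24. In wild-type set P it read 248.8, 239, 275, 253, 259 and 261 CPM. The set P values were nearly flat, while set I dropped to its lowest at ZT04, ZT16 and ZT20. In knockout, F9 lay between 209 and 319 CPM in all libraries. Hc, the gene of complement C5, showed the same split, with 328, 852, 563, 322, 175 and 1028 CPM in wild-type set I and 1201 to 1693 CPM in wild-type set P. Across the 36 members, the log2 ratio of set I to set P in wild type ran from -1.72 (Hc) to 0.55 (Serpinf2) and correlated with transcript GC content at r = 0.73, a description of genes measured in the same libraries. The same correlation in knockout was 0.58, over a narrower range of -0.34 to 0.12. The genotype differences of the members are therefore given below for all libraries and for set P alone. Set P holds 1 library per group, so its fit had a term for each time and 1 genotype difference shared by all times. Its p-values therefore do not rest on the spread between libraries of a group. The fit with the set letter as a replicate block is given where it changes a call. That block is 1 shift per gene shared by both genotypes, so it does not model a set difference found mainly in wild type.

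**Figure D1:**
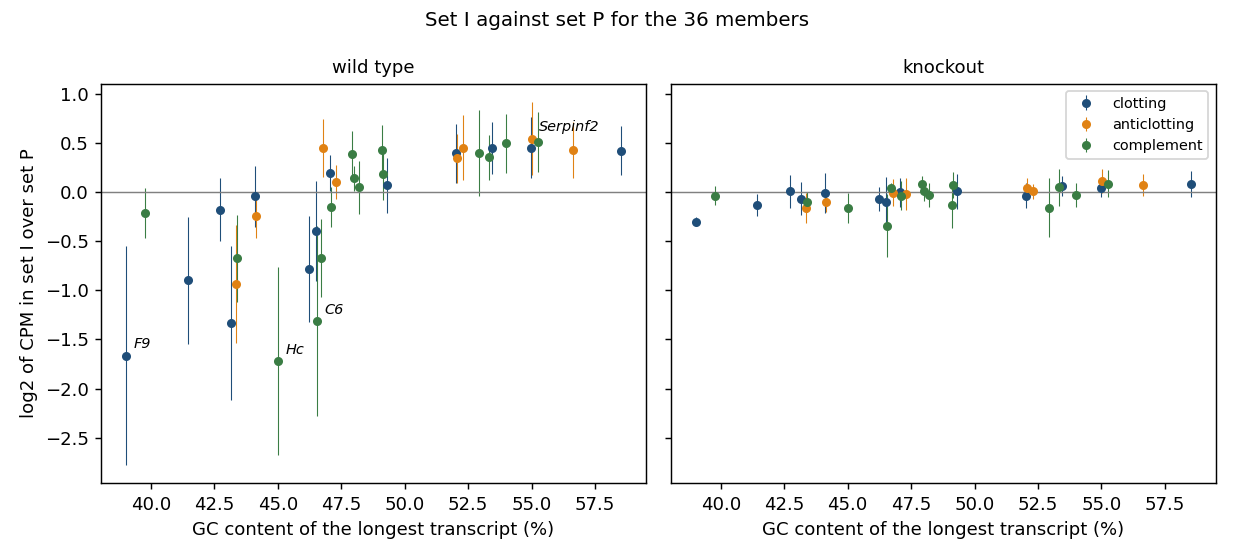
Log2 ratio of CPM in set I over set P (y axis) against the GC content of each member's longest transcript in percent (x axis), for wild type (left) and knockout (right). Points are means over 6 times, bars are 1 SD, and colours give the role; in wild type the members spread from -1.72 to 0.55, in knockout from -0.34 to 0.12.

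Fibrinogen mRNAs changed over the day in wild type. The 3 chains of fibrinogen, the precursor of the fibrin mesh, are encoded by Fga, Fgb and Fgg, which lie together on chromosome 3 with gaps of 11026 bp between Fgg and Fga and 6513 bp between Fga and Fgb. They were among the most abundant members per transcript length, ranking 2, 3 and 4 of 36 (Fga, Fgg, Fgb) after C3, and were the only members with a rhythm in wild type by edgeR, while DESeq2 also called Cfb. A 24 h cosine fit called 3 of 36 members rhythmic in wild type, which is near the 8.67% of all 15090 genes tested. DESeq2 called 4, against 12.7% of all genes. No member was called rhythmic in knockout by edgeR, where 3.57% of all genes were. Fga and Fgg had an unadjusted p under 0.05 there, as 15% of all genes did, and were called by DESeq2, as 6.59% of all genes were. The test of a difference in rhythm between genotypes called 0 members and 0 genes by edgeR and 0 members by DESeq2, so a loss of the rhythm in the knockout is not shown.

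Fga read 8961 and 6744 CPM in the wild-type set I and set P libraries at ZT04, 5085 and 6007 at ZT08, 4471 and 3967 at ZT12, 4590 and 3595 at ZT16, 5589 and 6400 at ZT20, and 6380 and 6747 at ZT24. In knockout the same order gave 5382 and 5553, 4497 and 4206, 4514 and 3761, 3560 and 4085, 5440 and 5086, and 5344 and 5990 CPM. The wild-type libraries were high around lights on and low at ZT12 and ZT16, and both wild-type libraries exceeded both knockout libraries at ZT04, ZT08, ZT20 and ZT24 but not at ZT12 or ZT16. In wild type the fitted amplitude of Fga was 0.46 on the log2 scale with a peak at ZT 2.09 (adjusted p = 0.00145), and the mean at ZT04 was 1.92 times that at ZT16. In knockout the amplitude was 0.29 (adjusted p = 0.0653), with a ratio of highest to lowest group mean of 1.48.

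Fgb, the beta chain, read 7293 and 5756 CPM in wild type at ZT04 and 3711 and 3177 at ZT16, against 4531 and 4817, and 3480 and 4133, in knockout. Its wild-type amplitude was 0.42 with a peak at ZT 3.22 (adjusted p = 0.00247), and its knockout amplitude 0.16 (adjusted p = 0.503). It was the one member whose rhythm differed between genotypes at an unadjusted p under 0.05, which 5.25% of all genes did. Fgg, the gamma chain, read 3709 and 3162 CPM in wild type at ZT04 and 1882 and 1773 at ZT16, against 2702 and 2759, and 1835 and 2116, in knockout. Its amplitude was 0.46 in wild type (adjusted p = 0.00192) and 0.27 in knockout (adjusted p = 0.103). Over all libraries, the lowest group mean of each chain stood at ZT16 in both genotypes. The highest stood at ZT04 in wild type and ZT24 in knockout. In set P alone, the lowest value of each chain stood at ZT16 in wild type and ZT12 in knockout. The highest value of Fga and Fgg there stood at ZT24 in both genotypes. That of Fgb stood at ZT04 in wild type and ZT24 in knockout.

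The wild-type rhythm of all 3 chains held in set P (amplitudes of 0.48, 0.41 and 0.46 for Fga, Fgb and Fgg, adjusted p = 0.0262, 0.0484 and 0.0286, against 5.55% of all genes) and without each library in turn. In set I alone no member and no gene was called rhythmic. With GC and length trends removed Fga alone stayed called, and with the replicate block added to that fit Fga, Fgg and Pros1 were called. In knockout, Fga passed the test without 1 of 4 libraries (knockout ZT12 set I, wild-type ZT04 set I, or either wild-type ZT20 library), with adjusted p down to 0.0302.

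**Figure D2:**
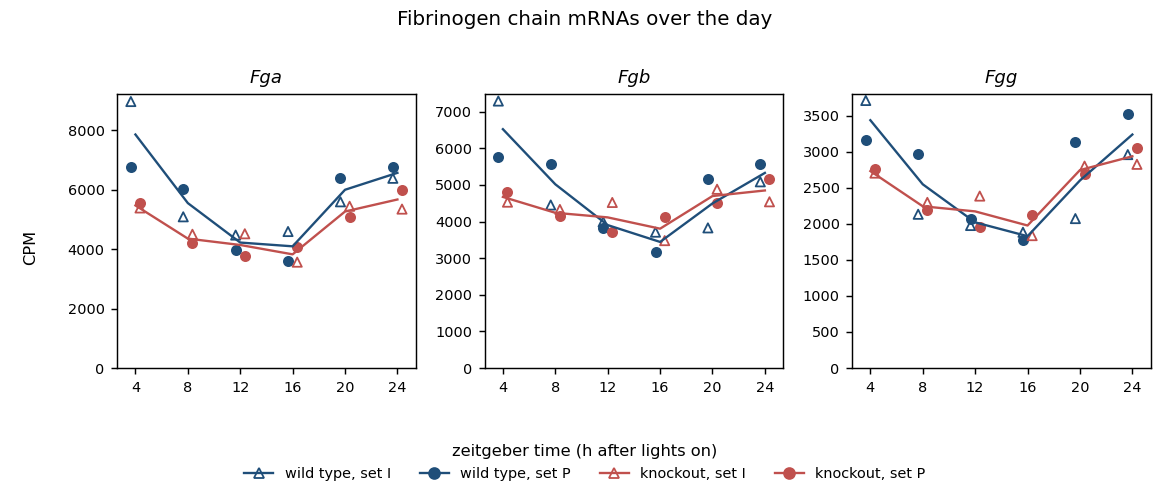
CPM (y axis, from 0) of the 3 fibrinogen chain mRNAs by zeitgeber time in hours (x axis); each point is 1 library, open triangles set I and filled circles set P, and lines join the means of 2 libraries for wild type (blue) and knockout (red). Wild-type libraries are highest at ZT04 or ZT24 and low at ZT12 and ZT16, and the knockout follows with a smaller range.

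Averaged over the 6 times, 6 of 36 members were higher and 11 lower in knockout than in wild type. Of all genes tested, 12.1% were higher and 21.1% lower, so the members' shares are 16.7% and 30.6% against those. The higher members were F11, Pros1, Cpb2, C9, Cfi and C4bp, and the lower ones F2, F10, Fga, Kng1, Serpinc1, Serpinf2, Serping1, C8g, Cfb, Masp2 and Mbl2. In set P alone, 4 were higher (F11, Klkb1, Pros1 and Hc, against 6.71% of all genes) and 3 lower (F10, Serpinf2 and Cfb, against 6.33%). The same 7 genes were called in the same direction in set I alone, and 4.3% of the 14849 genes tested in both sets were higher in each and 4.44% lower in each. Transcript GC content was 43.2% to 46.5% in the 4 higher genes and 52.0% to 55.0% in the 3 lower ones. The correlation of levels, relative to each gene's median over the libraries, with GC content differed between genotypes in set P too (-0.0599 in wild type, -0.228 in knockout). Its part in these calls was not tested. With GC and length trends removed over all libraries, all 7 were called in the same direction. The sign of the genotype difference was the same in both sets for 33 of 36 members, the exceptions being Fgg, C4b and C8a. The size differed more: 18 members had a genotype difference that itself differed between sets (edgeR interaction, added after the values were seen), 10 of them more positive and 8 less positive in set P, against 14.2% and 14.8% of all genes.

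The roles did not move as blocks. Of 13 clotting genes 1 was higher and 4 lower, of 8 anticlotting genes 2 were higher and 3 lower, and of 15 complement genes 3 were higher and 4 lower. The anticlotting counts include Cpb2 (higher) and Serpinf2 (lower), whose products slow clot dissolution. The median log2 difference was -0.10 for clotting, -0.26 for anticlotting and -0.06 for complement genes, against -0.02 for all genes. In set P the medians were -0.06, -0.09 and -0.03, against 0.00 for all genes. With the set letter as a replicate block, 12 members were higher (25.1% of all genes) and 16 lower (27.2%). Without any wild-type set I library, 4 were higher (F11, Klkb1, Hc and C9, against 9.91%) and 4 lower (F10, Fga, Serping1 and Cfb, against 8.86%).

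**Figure D3:**
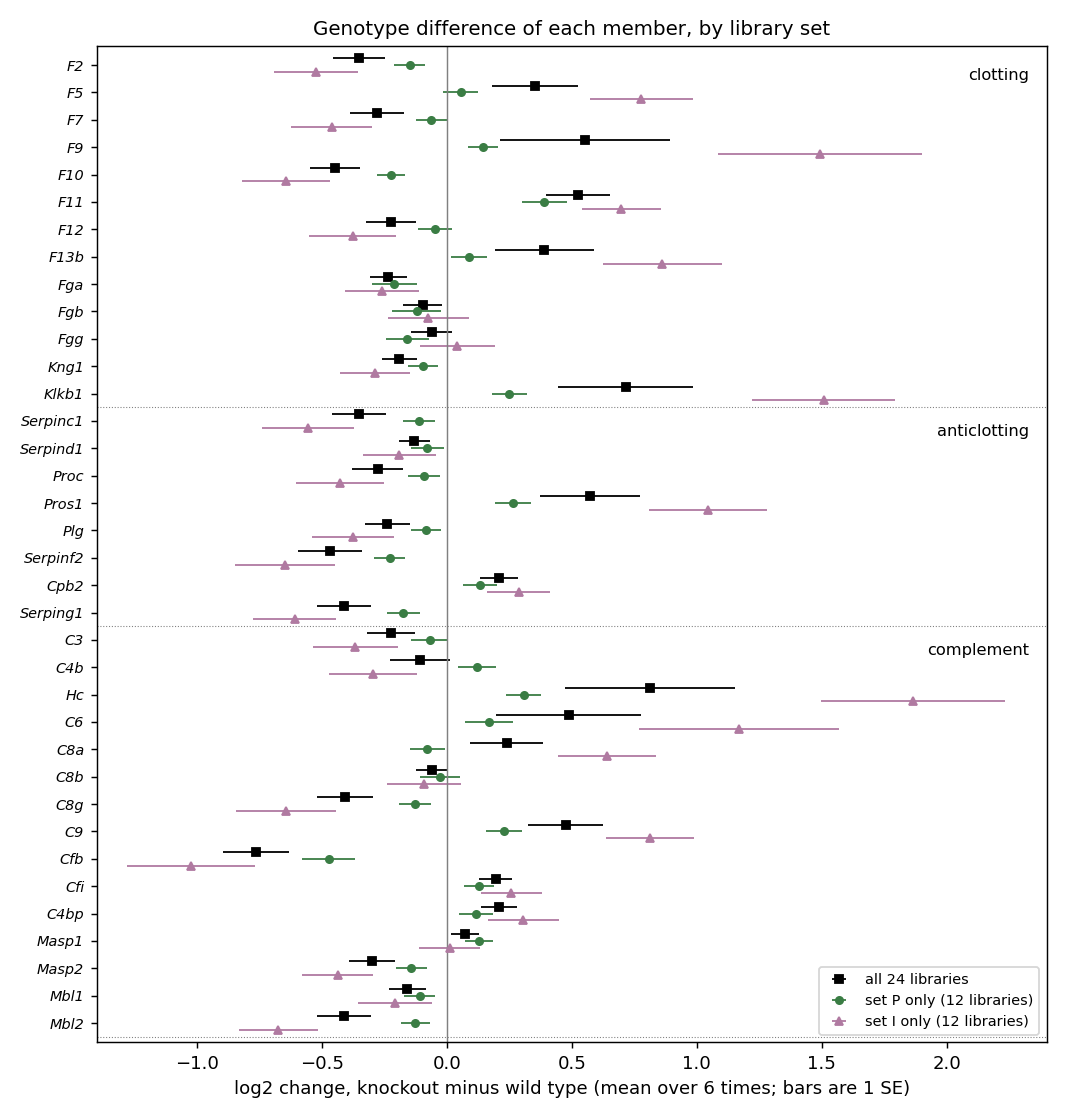
Log2 difference between knockout and wild type (x axis), averaged over 6 times, for each of the 36 members (y axis) grouped by role; squares are all 24 libraries, circles set P and triangles set I, with bars of 1 SE. Set I differences are wider than set P differences for most members, and F10, Serpinf2 and Cfb on the left and F11, Klkb1, Pros1 and Hc on the right keep their side in both.

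Among the clotting genes, F10 was lower and F11 higher in each set and without each library in turn. F10 encodes factor X, where the intrinsic and extrinsic routes meet. It read 806, 645, 598, 791, 1012 and 513 CPM from ZT04 to ZT24 in wild-type set I and 525, 526, 543, 539, 595 and 512 in wild-type set P. In knockout it read 449, 434, 512, 463, 419 and 456 CPM in set I and 448, 471, 462, 461, 494 and 456 in set P. Within each set every knockout library was below every wild-type library. F10 averaged 634 ± 157 CPM (SD, n = 12) in wild type and 460 ± 24.7 in knockout, a log2 difference of -0.45 (SE 0.10, adjusted p = 0.00494), and -0.22 (SE 0.06, adjusted p = 0.0260) in set P.

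F11 encodes factor XI, which activates factor IX and so amplifies clotting. In wild type it ranged from 53.7 to 182 CPM with a median of 113, and in knockout from 128 to 209 with a median of 167. The ranges overlapped, but knockout was higher in 12 of 12 pairs of libraries of the same time and set. The log2 difference was 0.53 (SE 0.13, adjusted p = 0.00778), and 0.39 (SE 0.09, adjusted p = 0.0164) in set P. Klkb1 lies 4657 bp from F11 on chromosome 8 and encodes plasma prekallikrein of the contact system. Its set P levels were 167 to 240 CPM in wild type (median 223) and 188 to 302 in knockout (median 254). Its log2 difference was 0.25 in set P (SE 0.07, adjusted p = 0.0366) and 0.72 over all libraries (SE 0.27, adjusted p = 0.0527). DESeq2 called it over all libraries, and the main edgeR fit did not. Over all libraries edgeR called it with the replicate block (0.85, adjusted p = 0.00813) and with GC and length trends removed (0.45, adjusted p = 0.0219). Upper-quartile scaling and the fit with no filter on low counts also gave the call. The annotated gene Gm45753 covers 43.2% of the exon bases of Klkb1 on the same strand, and held 4 counts in all libraries together.

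F2, the prothrombin gene, ranged from 1482 to 3002 CPM in wild type (median 1718) and from 1404 to 1632 in knockout (median 1483), with knockout lower in 12 of 12 pairs. Its log2 difference was -0.35 (SE 0.10, adjusted p = 0.0214) and kept its call without each library, but in set P it was -0.15 (adjusted p = 0.138). Fga was lower by the same test at -0.23 (adjusted p = 0.0288), and in set P at -0.21 (adjusted p = 0.149). Its call was lost without any 1 of 12 libraries, 7 of knockout and 5 of wild type, with adjusted p up to 0.0676. Kng1, which encodes kininogen, the cofactor of prekallikrein and source of bradykinin, was at -0.19 (adjusted p = 0.0493), and the call was lost without any 1 of 20 libraries and in set P (-0.10, adjusted p = 0.323). Kng1 has a near-identical copy, Kng2, so reads may have been split between them. F7, the trigger of the extrinsic route, lies 1498 bp from F10, and its log2 difference was -0.28 (adjusted p = 0.0552), and -0.06 in set P (adjusted p = 0.548). With the replicate block F7 was lower, at -0.26 (adjusted p = 0.0231).

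F5, F9 and F13b had positive differences of 0.35, 0.55 and 0.39 that did not pass the test (adjusted p = 0.115, 0.193 and 0.125), but did with the replicate block, at 0.40, 0.74 and 0.45 (adjusted p = 0.0284, 0.0307 and 0.0270). Their genotype differences themselves differed between sets (edgeR interaction, adjusted p = 0.0258, 0.0277 and 0.0328), which the shared block does not model. In set P the differences of F5, F9 and F13b were 0.06, 0.14 and 0.09 (adjusted p = 0.639, 0.134 and 0.443). The GC content of their transcripts was 46.2%, 39.03% and 41.4%. F12, at 58.5% the most GC-rich member, was at -0.22 over all libraries (adjusted p = 0.0889) and -0.05 in set P (adjusted p = 0.699). With the block F12 was lower, at -0.21 (adjusted p = 0.0345), and with GC and length trends removed as well it was at 0.13. Fgb and Fgg were at -0.10 and -0.06 (adjusted p = 0.315 and 0.556), but at -0.47 and -0.40 with GC and length trends removed (adjusted p = 0.0222 and 0.0264). In set P they were at -0.12 and -0.16 (adjusted p = 0.448 and 0.259).

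Of the anticlotting genes, Serpinf2 was lower and Pros1 higher in each set. Serpinf2 encodes alpha-2-antiplasmin, the main inhibitor of plasmin. It read 2067, 1359, 922, 1279, 1720 and 972 CPM from ZT04 to ZT24 in wild-type set I and 1080, 966, 785, 735, 972 and 976 in wild-type set P. In knockout it read 973, 861, 841, 668, 794 and 1008 CPM in set I and 997, 847, 692, 609, 759 and 856 in set P. Knockout was lower in 11 of 12 pairs, the exception being ZT24 in set I. The log2 difference was -0.47 (SE 0.13, adjusted p = 0.0153), and -0.23 (SE 0.06, adjusted p = 0.0328) in set P. Without any wild-type set I library it was -0.16 (adjusted p = 0.103). In set P Serpinf2 was also called rhythmic in knockout (amplitude 0.32, adjusted p = 0.0422, against 5.24% of all genes), while its wild-type amplitude there was 0.25 (adjusted p = 0.112), and the difference did not pass the test (adjusted p = 0.990).

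Pros1 encodes protein S, the cofactor of activated protein C. In set P it ranged from 80.1 to 110 CPM in wild type (median 85.9) and from 94.4 to 127 in knockout (median 116), higher in knockout at 6 of 6 times. The log2 difference was 0.27 in set P (SE 0.07, adjusted p = 0.0360) and 0.57 over all libraries (SE 0.20, adjusted p = 0.0412). The latter call was lost without any 1 of 17 libraries, including all 12 of knockout, with adjusted p up to 0.0907, and without wild-type set I (0.20, adjusted p = 0.0517). Proc, the gene of protein C itself, was at -0.28 (adjusted p = 0.0503), and -0.09 in set P (adjusted p = 0.374). With the replicate block Proc was lower, at -0.26 (adjusted p = 0.0170), and with GC and length trends removed as well it was at 0.0212.

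Serping1, encoding C1 inhibitor, which restrains both kallikrein and complement C1, ranged from 807 to 1589 CPM in wild type (median 985) and from 764 to 916 in knockout (median 797). It was lower in knockout in 12 of 12 pairs, at a log2 difference of -0.41 (SE 0.11, adjusted p = 0.0128), and kept its call without each library and without wild-type set I (-0.16, adjusted p = 0.0389). In set P alone the difference was -0.17 (adjusted p = 0.104). Serpinc1, the antithrombin gene, was lower by the same test at -0.35 (adjusted p = 0.0249), and -0.11 in set P (adjusted p = 0.293). Its call was lost without wild-type set I at ZT04, ZT08 or ZT16 (adjusted p up to 0.0576), and 34.4% of its exon bases overlap Zbtb37 on the other strand. Cpb2, whose product TAFI slows clot dissolution, was higher at 0.21 (adjusted p = 0.0448), a call lost without any 1 of 18 libraries, and 0.13 in set P (adjusted p = 0.221). With GC and length trends removed it turned to -0.03 (adjusted p = 0.744). Plg and Serpind1, the genes of plasminogen and heparin cofactor II, were at -0.24 and -0.13 (adjusted p = 0.0529 and 0.103), and both at -0.08 in set P (adjusted p = 0.386 and 0.474). With the replicate block Plg was lower, at -0.23 (adjusted p = 0.0225).

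**Figure D4:**
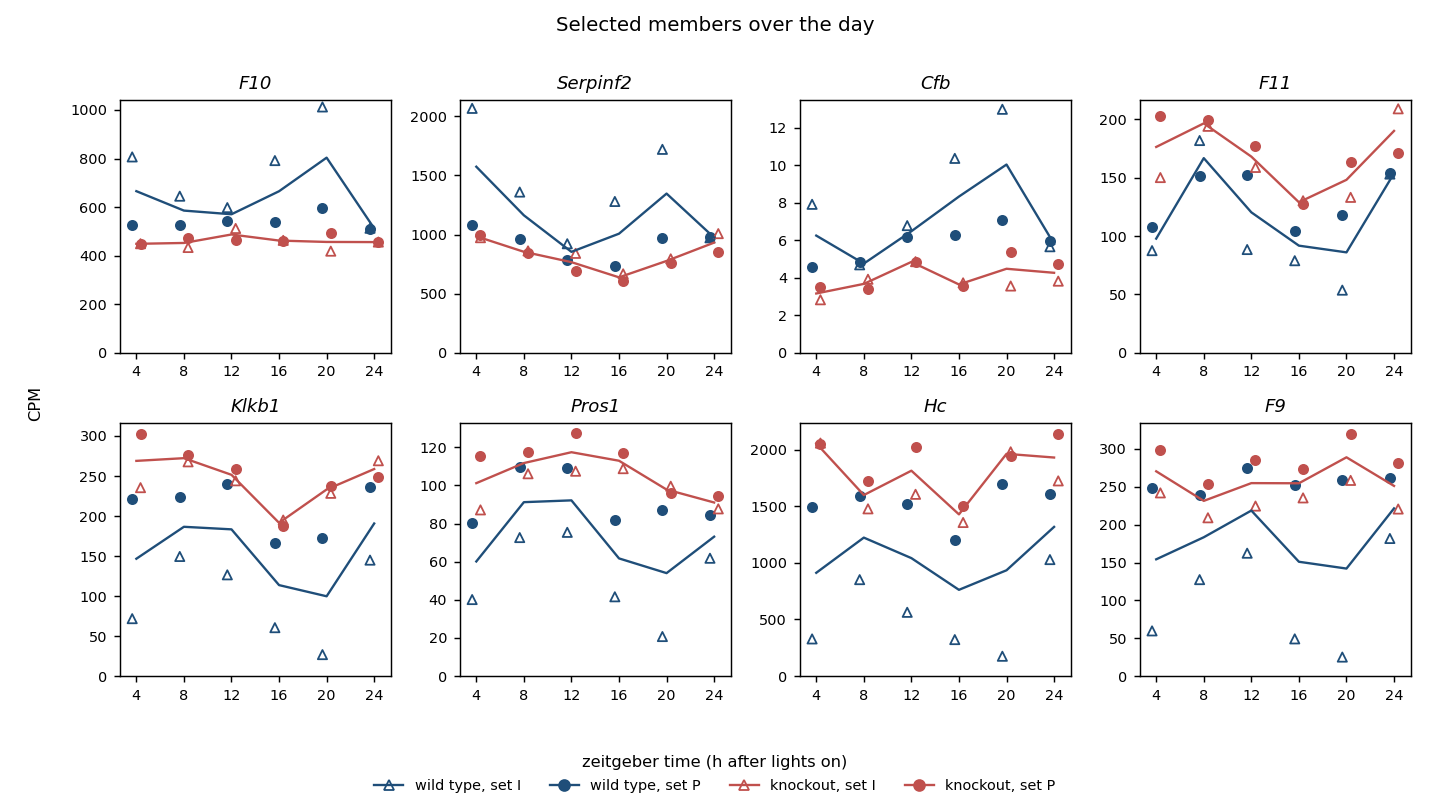
CPM (y axis, from 0) of 8 members by zeitgeber time in hours (x axis); each point is 1 library, open triangles set I and filled circles set P, and lines join the means of 2 libraries for wild type (blue) and knockout (red). In F9, Hc, Klkb1 and Pros1 the wild-type triangles lie far below the other points of the same time at ZT04, ZT16 and ZT20. At the other times they also lie below them. In F10 the knockout points lie below the wild-type points within each set.

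In the complement group, Cfb was lower and Hc higher in knockout in each set. Cfb encodes factor B, the protease of the alternative pathway. It ranged from 4.58 to 12.99 CPM in wild type (median 6.24) and from 2.83 to 5.40 in knockout (median 3.78), lower in knockout in 12 of 12 pairs. The log2 difference was -0.76 (SE 0.13, adjusted p = 0.000845), the largest fall among the members, and -0.47 (SE 0.11, adjusted p = 0.0157) in set P. Cfb had a mean of only 92.1 counts per library, and 79.5% of its exon bases lie in the same-strand gene Gm20547, which held 0 counts, so these values cover only the reads that were assigned to Cfb.

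Hc read 2057, 1476, 1605, 1356, 1980 and 1723 CPM from ZT04 to ZT24 in knockout set I and 2053, 1720, 2022, 1499, 1944 and 2136 in knockout set P. In wild-type set P it read 1496, 1593, 1520, 1201, 1693 and 1606 CPM. Knockout exceeded wild type at 6 of 6 times in set P, by a log2 difference of 0.31 (SE 0.07, adjusted p = 0.0155). Over all libraries the difference was 0.81 (SE 0.34, adjusted p = 0.0724), where DESeq2 called it and the main edgeR fit did not. With edgeR it was called with the replicate block (1.03, adjusted p = 0.00875), with GC and length trends removed (0.63, adjusted p = 0.0462) and with no filter on low counts. In set I the difference was 1.87 (SE 0.37), and it differed between the sets (adjusted p = 0.0170).

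The genes of the membrane attack complex, the pore that ends the cascade, went separate ways. C9, which forms the ring of the pore, was higher in knockout in 12 of 12 pairs, with 348 to 928 CPM in wild type (median 675) and 666 to 1147 in knockout (median 937). Its log2 difference was 0.48 (SE 0.15, adjusted p = 0.0276), and 0.23 in set P (SE 0.07, adjusted p = 0.0605), and the first call was lost without any 1 of 12 libraries and with GC and length trends removed (0.21, adjusted p = 0.0986). C8g, the gamma chain of C8, was lower at -0.41 (SE 0.11, adjusted p = 0.0161), a call kept without each library, but -0.13 in set P (adjusted p = 0.225). C8a and C8b, neighbours 11130 bp apart that encode the other chains of C8, were at 0.24 and -0.06 (adjusted p = 0.187 and 0.465), and in set P at -0.08 and -0.03 (adjusted p = 0.495 and 0.854). C6 was at 0.49 (adjusted p = 0.180), and 0.17 in set P (adjusted p = 0.266). With the replicate block C6 was higher, at 0.61 (adjusted p = 0.0318).

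Of the lectin pathway, Mbl2, a mannose-binding lectin, was lower at -0.41 (SE 0.11, adjusted p = 0.0127), with 249.1 to 506 CPM in wild type (median 317) and 210 to 320 in knockout (median 265). Masp2, the protease it carries, was lower at -0.30 (SE 0.09, adjusted p = 0.0254), with 132 to 220 CPM in wild type (median 159) and 124 to 152 in knockout (median 136). In set P both missed the threshold, at -0.12 and -0.14 (adjusted p = 0.187 and 0.150). The Masp2 call was lost without wild-type set I at ZT04, ZT08 or ZT16, and 54.9% of its exon bases overlap Tardbp on the other strand. Mbl1 was at -0.16 and Masp1 at 0.07 (adjusted p = 0.0982 and 0.282), and in set P at -0.11 and 0.13 (adjusted p = 0.280 and 0.144).

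Among the regulators, Cfi, which cleaves C3b and C4b, was higher in 12 of 12 pairs at 0.20 (SE 0.07, adjusted p = 0.0356), with 570 to 844 CPM in wild type (median 777) and 764 to 990 in knockout (median 858). C4bp, its cofactor, was higher at 0.21 (SE 0.07, adjusted p = 0.0409). In set P they were at 0.13 and 0.12 (adjusted p = 0.172 and 0.280), and the all-library calls were lost without any 1 of 12 and 18 libraries. With GC and length trends removed, C4bp turned to -0.36 (adjusted p = 0.0849) and Cfi was at 0.05 (adjusted p = 0.607). C3, the hub of the 3 pathways and the most abundant member per transcript length, was at -0.22 (adjusted p = 0.0810), and -0.07 in set P (adjusted p = 0.586). With the replicate block C3 was lower, at -0.21 (adjusted p = 0.0411). C4b was at -0.11 (adjusted p = 0.464) and 0.12 in set P (adjusted p = 0.319). It has a near-identical copy, C4a, so its counts are uncertain.

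At single times edgeR called no member in either direction. Of all genes, 0.563% were higher and 0.696% lower at ZT04, 0.331% and 0.603% at ZT08, 0.696% and 1.15% at ZT12, 0.643% and 1% at ZT16, 1.47% and 2.49% at ZT20, and 0.292% and 0.371% at ZT24. At an unadjusted p under 0.05 there were 9 members at ZT04, 0 at ZT08, 1 at ZT12, 6 at ZT16, 12 at ZT20 and 0 at ZT24, where 17.3%, 8.14%, 11.6%, 18.1%, 31.7% and 6.3% of all genes had one. DESeq2 called Cfb at ZT16 and F10 and Cfb at ZT20. The 3 times with most such members, ZT04, ZT16 and ZT20, were those where wild-type set I libraries had the strongest GC trend, whose part in these counts was not tested. No member and no gene had a genotype effect that differed between times by edgeR or, for members, DESeq2, and 0 members had an unadjusted p under 0.05.

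Over all libraries, the daily range was narrower in knockout than in wild type for most members, but in set P the medians lay close together. The ratio of the highest to the lowest group mean had a median of 1.57 in wild type (1.10 to 2.11) and 1.27 in knockout (1.09 to 2.02). Fitted amplitudes had a median of 0.17 in wild type and 0.09 in knockout, against 0.23 and 0.17 for all genes, and 30 of 36 members had the larger value in wild type. In set P the median ratio was 1.302 in wild type and 1.26 in knockout, with the larger ratio in wild type for 21 of 36 members. The median amplitude there was 0.11 and 0.10, with the larger value in wild type for 23 of 36. The spread between libraries moved with this. The coefficient of variation had a median of 26.3% over the 12 wild-type libraries and 9.98% over the 12 knockout libraries, but 10.05% over the 6 wild-type libraries of set P.

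Among 44 other genes of these pathways, 11 were higher and 7 lower in knockout (25% and 15.9%, against 12.1% and 21.1% of all genes). In set P 6 were higher and 1 lower (13.6% and 2.27%, against 6.71% and 6.33%). In clotting, 2 of 10 were higher and 1 lower. They were Lman1, a cargo receptor for factors V and VIII (0.42, adjusted p = 0.0433), Kng2 (0.16, adjusted p = 0.0449) and Mcfd2, the partner of Lman1 (-0.27, adjusted p = 0.0152). In set P these were at 0.24, 0.16 and -0.12 (adjusted p = 0.0481, 0.113 and 0.292), so Lman1 alone was called. In clot control, 4 of 14 were higher and 4 lower, and Hrg and Tfpi differed most clearly.

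Hrg encodes histidine-rich glycoprotein, which binds plasminogen, heparin and fibrinogen. Its wild-type libraries ranged from 1065 to 2446 CPM (median 1360) and its knockout libraries from 464 to 666 CPM (median 558). No knockout library reached the lowest wild-type library. The log2 difference was -1.401 (SE 0.11) and -1.24 (SE 0.08) in set P. Tfpi encodes the inhibitor of the tissue factor and factor VIIa complex. It ranged from 1.66 to 9.63 CPM in wild type (median 7.62) and from 10.95 to 14.9 in knockout (median 12.8), again without overlap. Its log2 difference was 1.02 (SE 0.23, adjusted p = 0.00547) and 0.70 (SE 0.09) in set P. Thbd, the thrombomodulin gene, was higher at 0.41 (adjusted p = 0.0037), and Serpina5, encoding protein C inhibitor, at 1.24 (adjusted p = 0.00489), from a mean of only 0.435 CPM in wild type. In set P Thbd was at 0.46 and missed the threshold (adjusted p = 0.05004), and Serpina5 was at 1.82 (adjusted p = 0.00654).

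In complement, 5 of 20 were higher and 2 lower. Cd59a encodes a membrane protein that blocks the C9 ring. It ranged from 22.1 to 37.4 CPM in wild type (median 27.8) and from 25.1 to 65.0 in knockout (median 49.5), and in set P every knockout library was above every wild-type one. The log2 difference was 0.81 (SE 0.11), and 0.93 (SE 0.10) in set P. C3ar1, the receptor of C3a (0.35, adjusted p = 0.0161), and C1s1, a protease of complement C1 (0.19, adjusted p = 0.0213), were higher, and Colec11, a collectin of the lectin pathway, lower (-0.25, adjusted p = 0.0266). In set P these 3 were at 0.33, 0.14 and -0.06 (adjusted p = 0.0766, 0.142 and 0.656).

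**Figure D5:**
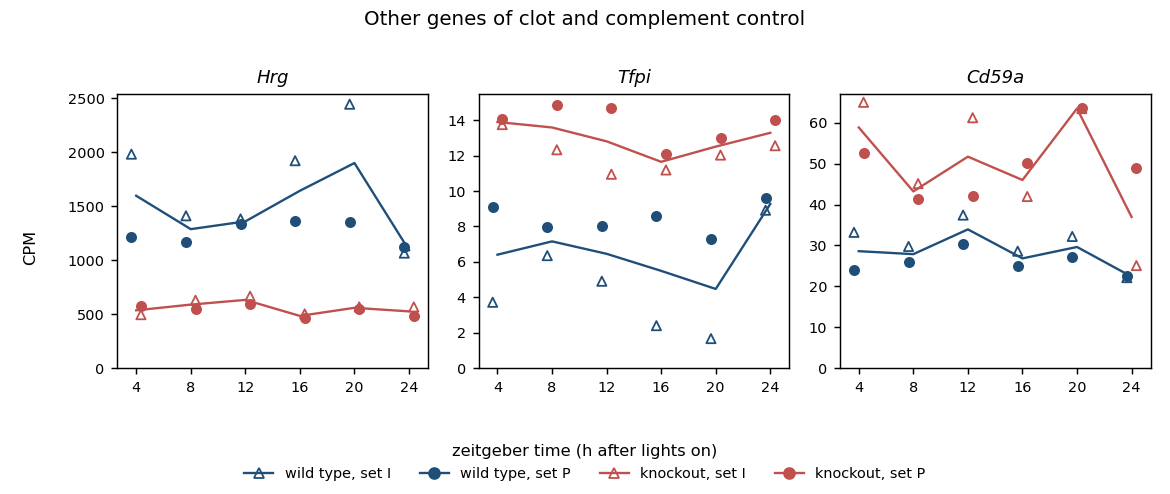
CPM (y axis, from 0) of Hrg, Tfpi and Cd59a by zeitgeber time in hours (x axis); each point is 1 library, open triangles set I and filled circles set P, and lines join the means of 2 libraries for wild type (blue) and knockout (red). Knockout points lie below all wild-type points for Hrg (464 to 666 against 1065 to 2446 CPM) and above them for Tfpi.

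Fibrinogen, C3 and mannose-binding lectin are also acute phase proteins, so 16 other acute phase genes were read in the same fit. Of these, 6 were higher in knockout (Saa1, Saa2, Saa3, Lcn2, Apcs and Fgl1) and 2 lower (Serpina3n and Hamp), which is 37.5% and 12.5% against 12.1% and 21.1% of all genes. In set P 5 were higher (Saa1, Saa2, Saa3, Hp and Cp) and 1 lower (Hamp), against 6.71% and 6.33%. Saa3, named after its values were seen, ranged from 3.63 to 8.96 CPM in wild type and from 17.9 to 50.5 in knockout. Fga, Fgb, Fgg, C3 and Mbl2 were not among the members that were higher. Over all libraries Fga and Mbl2 were called lower, but neither was called in set P. Of 8 liver regulators, Hnf4a, Cebpa and Nfil3 were lower (-0.35, -0.39 and -0.58) and Onecut1 higher (0.63), and in set P Nfil3 alone was called. Of 6 Kupffer cell markers 3 were higher and 0 lower, with summed levels of 342 to 672 CPM in wild type and 362 to 560 in knockout. Of 6 markers of sinusoidal endothelium, the main source of factor VIII, 1 was higher, with sums of 232 to 300.4 and 269 to 370 CPM. Markers of platelets and megakaryocytes summed to 3.31 to 6.41 and 3.76 to 5.54 CPM, with 0 of 3 tested called. Their part in the members' differences was not tested.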

How the data were processed

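Liver mRNA was sequenced in 24 libraries, 2 per genotype and time. Per the labels' protocols, a TruSeq Stranded kit for mRNA was used. The deposited values are raw counts per gene. The submitters' processing notes name STAR 2.4.0i and mm10. How the authors counted, and with which annotation and strand setting, is not given in the sources used here. Symbols, GC content and length came from GENCODE M21, which named 54409 of 54532 genes. Counts were tested as deposited with edgeR 4.0.16 in R 4.3.3 (TMM, filterByExpr with a minimum count of 10, quasi-likelihood F-tests, Benjamini-Hochberg over all 15090 genes tested, called at adjusted p under 0.05). A fit of 12 group means gave the genotype differences over all libraries. Set P alone and set I alone hold 1 library per group, so their genotype differences came from another fit. It had a term for each time and 1 genotype difference shared by all times. The SE and p-values of that fit rest on what these terms leave over, not on the spread between libraries of a group. A fit of a 24 h cosine per genotype gave the rhythms. CPM used TMM-scaled library sizes. The scripts were tested on simulated data. Alternatives were DESeq2 1.42.0, other scalings, no filter, GC and length trends removed, set P or set I alone, the replicate block and each library left out. The test of the set difference, set I alone, and the fit without 3 wild-type set I libraries were added after the values were seen. The members and lists were chosen with earlier results of these data known. All members are named by role, and of the other genes up to 4 called per role by smallest p.

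The letters I and P recur in each group. After removal of group means, same-letter wild-type and knockout libraries correlated at 0.286, 0.203, 0.319, 0.125, 0.126 and 0.140 from ZT04 to ZT24. This was over the 11332 genes whose log2 CPM averaged 1 or more, against 0.0541 to 0.231 over all 15090. From the data alone, the letters were taken to pair the libraries in the replicate block fits and in pairs of the same time and set. The main fits of group means and of the cosine did not use the pairing, so their p-values do not account for it.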

Additional observations from a re-analysis of the deposited data

How the results depend on the processing

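Members higher in knockout over the day numbered 6, and 12 with the replicate block. Of the 6, only 2 were among the 4 higher in set P, without wild-type set I, or with GC and length trends removed. Only 3 were among the 9 higher in set I alone or with no filter. Members lower numbered 11, and 4 without wild-type set I and 3 in set P. They numbered 6 without the wild-type libraries of set I taken at ZT04, ZT16 and ZT20 (the reduced set). With GC and length trends removed 14 were lower, all 11 among them. Of all genes, 11.7% were higher and 21.1% lower in that fit. Pairs of member and time called numbered 0 in both directions, but 10 higher and 6 lower with no filter on low counts, and the lower ones 3 with DESeq2, 7 with the replicate block and 5 with the block and GC and length trends removed. Members rhythmic in wild type numbered 3 (against 8.67% of all genes), but 1 with GC and length trends removed (against 9.68%) and 0 in set I alone (against 0%). In knockout they numbered 0 (against 3.57% of all genes), but 1 with DESeq2 size factors (Fga, against 3.8%) and 2 with DESeq2 (against 6.59%). They numbered 4 without wild-type set I (against 17.6%), 1 in set P (against 5.24%) and 3 in the reduced set (against 11.8%). Members with a genotype effect that differed by time numbered 0, and 1 with no filter. The block alone changed no call on rhythm or interaction. With the block and GC and length trends removed, Fga, Fgg and Pros1 were rhythmic in wild type.

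With each library left out in turn, members higher ranged from 1 to 12, members lower from 7 to 17, pairs higher from 0 to 12, pairs lower from 0 to 16, members rhythmic in wild type from 3 to 4 and in knockout from 0 to 1, and members with a different rhythm or a time-dependent effect stayed at 0. F2, F10, F11, Serpinf2, Serping1, C8g, Cfb and Mbl2 kept their calls in every such fit.

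Some log2 differences changed sign. With GC and length trends removed, without and with the block, F12 became 0.13 and 0.13, Proc 0.0211 and 0.0212, Cpb2 -0.0327 and -0.0289, C4b 0.0063 and 0.0145, C4bp -0.36 and -0.32 and Masp1 -0.16 and -0.14. Without wild-type set I, F12 became 0.00899, C4b 0.18 and C8a -0.0451. In set P, C4b became 0.12 and C8a -0.0770. In set I, Fgg became 0.0425, and with each library left out it ranged from -0.0981 to 0.0164, the last without wild-type ZT20 set P. In the reduced set, C4b became 0.10 and C8b 0.00096. The cause of these changes was not tested. For single members, 338 alternative values kept direction and side of the threshold, 57 gained a call, 52 lost one and 21 reversed. With 2 libraries per group, differences at single times were resolved least, and Cfb rests on the fewest counts.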
